A study of Mus musculus with 20 samples.

Results

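Dyrk1a and the genes of the DREAM complex were followed in the hearts of mouse embryos at embryonic stage E13.5, when the septa of the heart are still forming. The 10 genes, taken from the deposited table of 48795 genes by name, were the kinase gene Dyrk1a, the MuvB core genes Lin52, Lin9, Lin37 and Lin54, the pocket protein genes Rbl1 and Rbl2, the transcription factor genes E2f4 and Tfdp1, and Mybl2. RNA sequencing of poly(A) RNA covered 20 whole hearts in 4 groups of 5, all on the C57BL/6J background. Dp3Tyb hearts carried the duplication Dp(16Mir802-Zbtb21)3TybEmcf of a stretch of mouse chromosome 16 and were set against their wild-type (WT) littermates, wt_d. Ts1Rhr hearts carried Dp(16Cbr1-Fam3b)1Rhr, a shorter duplication of the same stretch, and were set against their own WT littermates, wt_t. Both duplications are present in every cell of the embryo and add 1 copy of Dyrk1a (3 in place of 2) along with its neighbours, so no group isolates the effect of Dyrk1a alone. The labels read "DS model heart defects" for all 5 Dp3Tyb hearts and for Ts1Rhr replicates 1 and 2. They name no defects for the other 3 Ts1Rhr hearts. This wording may describe the model and not a defect seen in that heart, since the study scored defects at a later stage. In Dp3Tyb the genotype and this label cannot be told apart. The study itself treats Ts1Rhr as a strain without heart defects, so the labels of Ts1Rhr replicates 1 and 2 differ from its account.

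The DREAM complex silences cell cycle genes in cells that are resting or early in the cycle. A core of LIN9, LIN37, LIN52, LIN54 and RBBP4, called MuvB, joins a pocket protein (p107, from Rbl1, or p130, from Rbl2) bound to E2F4 and its partner DP1 (from Tfdp1). DYRK1A phosphorylates LIN52, and this phosphorylation helps the core to bind the pocket protein. When a cell enters the cycle the pocket protein leaves, and the same core binds B-MYB (from Mybl2) and later FOXM1 and switches on genes of mitosis. E2F4 with DP1 reads E2F sites, common in genes of the G1/S transition, whereas LIN54 reads the cell cycle homology region (CHR), common in genes of G2 and mitosis. The libraries measured mRNA, so neither the phosphorylation of LIN52 nor the assembly of the complex was measured here.

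Promoter windows of 300 bases (from 250 before to 50 after an annotated start, RefSeq, GRCm38.p6) were searched on both strands for E2F-type letters (TTTGGCGC, TTTGCCGC, TTTCGCGC or TTTCCCGC) and CHR-type letters (TTTGAA or TTCGAA). Of all 32851 windows, 2.26% held an E2F-type and 19.2% a CHR-type match. Among 46 windows of 38 G1/S target genes these shares were 37.0% and 21.7%, and among 43 windows of 40 G2/M target genes they were 6.98% and 79.1%. Windows were found for 8 of the 10 genes, all but E2f4 and Lin9. E2F-type letters stood in the windows of Rbl1, Lin52, Tfdp1 and the most downstream of 3 Dyrk1a windows, and CHR-type letters in those of Lin37, Lin54, Rbl2 and that same Dyrk1a window. A search for GGCGGGA, added after the sequences had been read, found it in 11.3% of all windows and in 7 of the 12 windows of these genes. By gene it stood in 12.7% of all genes and in 6 of the 8 (Dyrk1a, Lin52, Lin37, Lin54, Mybl2 and Tfdp1). It stood in 32.6% of the G1/S and 27.9% of the G2/M windows, and in 9.52% of those of the other regulators listed below. Shown are the windows of Rbl1 and Mybl2, the genes with the lowest values relative to WT in the Dp3Tyb hearts among the 10, beside the window of a strongly expressed target gene of each kind. GGCGGGA also stands in the Dnmt1 and Mki67 windows shown, where it is left in lower case. Dnmt1 (maintenance DNA methyltransferase) was picked among the 4 most abundant G1/S genes for its matches, which stand in 1 of its 3 windows (those of Rrm1 and Rrm2, also among the 4, hold none), and Mki67 (the proliferation antigen Ki-67) is the most abundant G2/M gene. The capitals mark the matches. A match describes the letters only and is not evidence that a protein was bound.
Rbl1, chr2:157204485-157204784, minus strand, E2F-type letters in capitals: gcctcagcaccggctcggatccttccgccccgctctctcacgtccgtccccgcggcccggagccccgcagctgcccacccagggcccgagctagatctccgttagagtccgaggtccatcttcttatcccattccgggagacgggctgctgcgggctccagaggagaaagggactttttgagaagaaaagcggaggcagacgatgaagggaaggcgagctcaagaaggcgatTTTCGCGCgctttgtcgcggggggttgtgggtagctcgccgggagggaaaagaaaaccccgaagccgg
Mybl2, chr2:163054385-163054684, plus strand, GGCGGGA in capitals: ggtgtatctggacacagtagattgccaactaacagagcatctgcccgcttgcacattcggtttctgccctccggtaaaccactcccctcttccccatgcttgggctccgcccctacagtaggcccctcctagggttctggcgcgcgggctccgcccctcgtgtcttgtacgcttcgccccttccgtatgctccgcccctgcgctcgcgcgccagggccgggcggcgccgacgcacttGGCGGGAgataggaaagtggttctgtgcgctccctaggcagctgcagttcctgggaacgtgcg
Dnmt1, chr9:20952574-20952873, minus strand, E2F-type letters in capitals: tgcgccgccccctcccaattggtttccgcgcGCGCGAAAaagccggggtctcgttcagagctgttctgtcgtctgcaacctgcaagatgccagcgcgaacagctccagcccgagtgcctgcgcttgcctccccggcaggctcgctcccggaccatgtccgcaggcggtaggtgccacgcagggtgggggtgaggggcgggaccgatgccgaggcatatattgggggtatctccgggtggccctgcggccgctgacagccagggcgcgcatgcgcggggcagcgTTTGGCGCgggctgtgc
Mki67, chr7:135716330-135716629, minus strand, CHR-type letters in capitals: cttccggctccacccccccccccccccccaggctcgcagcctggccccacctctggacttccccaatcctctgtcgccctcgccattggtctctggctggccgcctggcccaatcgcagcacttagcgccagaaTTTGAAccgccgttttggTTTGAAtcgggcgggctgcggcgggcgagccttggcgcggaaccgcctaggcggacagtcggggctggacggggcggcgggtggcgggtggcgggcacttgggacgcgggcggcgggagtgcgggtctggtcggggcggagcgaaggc
The Rbl1 match began 18 bases before the start and the Mybl2 match 13 bases before it.

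The libraries held between 6.60 and 19.6 M reads assigned to genes, and each of the 10 genes had at least 28 reads in every library. All 10 passed the filter on low values in each comparison. Values are reads divided by the library's size factor, called normalised reads below. Heart muscle transcripts marked the tissue as labelled, with Tnnt2 (cardiac troponin T) between 29840 and 86245 normalised reads. The share of reads from the mitochondrial genome ran from 4.85% to 19.5%. It was over 10% in 7 hearts, namely wt_d replicate 5, Dp3Tyb replicate 5, wt_t replicates 1, 2 and 4, and Ts1Rhr replicates 1 and 2. Results on the 10 genes that move with this share are given with and without these 7 hearts. Leaving them out leaves 4 wt_d, 4 Dp3Tyb, 2 wt_t and 3 Ts1Rhr hearts. The 2 Ts1Rhr hearts among the 7 are the same 2 whose labels name defects, so in Ts1Rhr this step changes both at once. In each group the smallest library was also among the 7.

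Per kilobase of the median annotated transcript, the DREAM genes spread from 58.0 to 531 normalised reads in the 10 WT hearts. Tfdp1 led with 531 ± 39.0 normalised reads per kilobase (SD, n = 10), ahead of Dyrk1a with 328 ± 36.5, E2f4 with 278 ± 21.8, Rbl1 with 226 ± 14.2 and Rbl2 with 175 ± 19.3. Lin9 followed with 154 ± 29.6, Lin54 with 138 ± 18.9, Mybl2 with 111 ± 7.35, Lin37 with 101 ± 14.6 and Lin52 with 58.0 ± 7.52. Lin52, the core subunit that DYRK1A phosphorylates, thus had the lowest mRNA level per kilobase of the 10. The order between Rbl2 and Lin9, between Lin9 and Lin54 and between Mybl2 and Lin37 differed by less than the larger SD of the pair. With the longest annotated transcript in place of the median, E2f4 moved from rank 3 to rank 7 at 105 ± 8.22 per kilobase.

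Dyrk1a (chr16:94569947-94695519) encodes the kinase that phosphorylates LIN52 and is inside both duplications. It rose by 0.42 ± 0.06 (log2, SE) on the mean of both strains against their own WT littermates, a 1.34-fold change (95% interval 1.22 to 1.47, adjusted p = 0.00270, limma). In the wt_d hearts it stood at 1820, 1866, 1692, 1884 and 2287 normalised reads, against 2529, 2491, 2499, 2403 and 3196 in the Dp3Tyb hearts. In the wt_t hearts it stood at 2014, 1996, 1740, 2339 and 1837, against 2759, 2720, 2413, 2551 and 2435 in the Ts1Rhr hearts. Every mutant heart was above every heart of its own WT group, in both strains. Such a separation, in the higher direction, occurred in 0.501% of genes tested in the Dp3Tyb comparison and in 0.619% in the Ts1Rhr comparison. Within each strain alone the exact permutation test gave its smallest possible value for 5 against 5 hearts, p = 0.00794 (2-sided, unadjusted).

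Across all genes, neither strain alone placed Dyrk1a past the threshold in the main test. The log2 difference was 0.46 ± 0.10 in Dp3Tyb, with an adjusted p of 0.478, where 0.0542% of all genes passed. In Ts1Rhr it was 0.38 ± 0.08, with an adjusted p of 0.415, where 0.0269% passed. DESeq2 on the recovered reads called it in each strain (adjusted p = 0.0140 and 0.0138), as did limma fits that weighted each library by its quality or held the mitochondrial share as a term. The alternatives for Dp3Tyb gave adjusted p values between 4.86e-05 and 0.523, and those for Ts1Rhr between 0.000597 and 0.485. Dyrk1a passed on the mean of both strains in all 10 alternatives (adjusted p from 9.62e-10 to 0.0262). The change in Dp3Tyb minus that in Ts1Rhr was 0.08 ± 0.13 (95% interval -0.19 to 0.35, adjusted p = 0.9997), so no difference between the strains was detected, in a comparison in which 0.013% of all genes passed, and the interval reaches up to 0.35. A ratio of 3 to 2 gene copies is 0.58 on the log2 scale. That value was inside the 95% interval for Dp3Tyb (0.24 to 0.68) and above the intervals for Ts1Rhr (0.20 to 0.56) and for the mean of both strains (0.28 to 0.55).

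Within each group the Dyrk1a level followed the mitochondrial share. All 7 hearts of over 10% were above the mean of their own group, and all 13 others were below it. Without the 7 hearts the change was 0.45 ± 0.04 in Dp3Tyb, where Dyrk1a was called (adjusted p = 0.000301, 0.206% of all genes called). It was 0.46 ± 0.08 in Ts1Rhr, where no gene was called (adjusted p = 0.437), and 0.46 ± 0.04 on the mean of both (adjusted p = 7.08e-06, 0.333% called). The rise was as large without these hearts as with them, and its interval on the mean of both (0.38 to 0.54) still lay below 0.58, whereas the interval for Ts1Rhr (0.28 to 0.64) then included it.

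**Figure D1:**
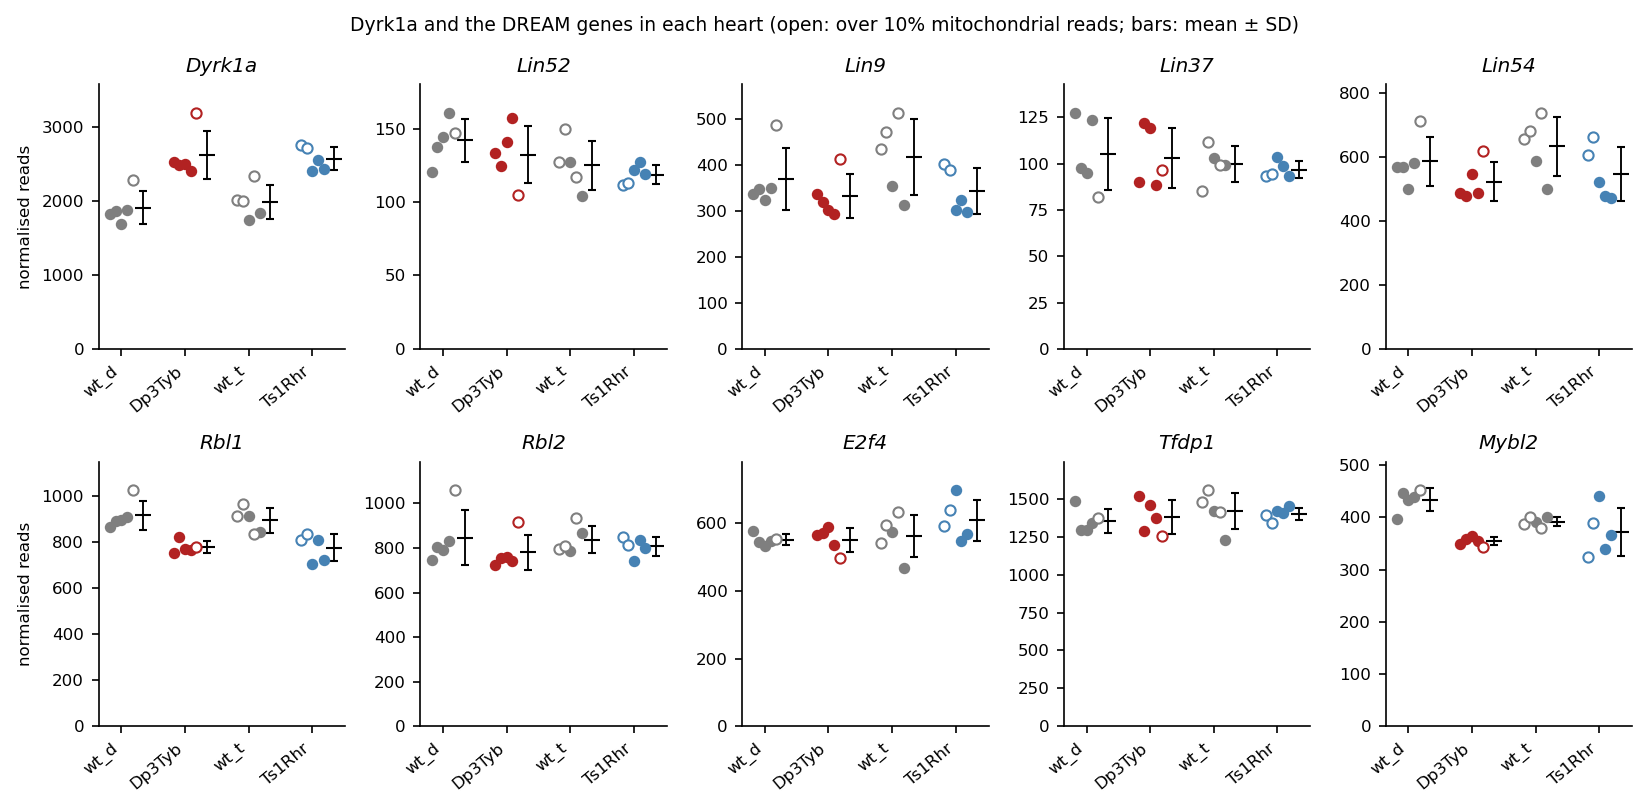
Normalised reads of the 10 genes in each heart by group, with replicates 1 to 5 from left to right and the group mean ± SD (n = 5) beside them. Open circles are hearts with over 10% mitochondrial reads. Dyrk1a is higher in every mutant heart than in its WT group, while Rbl1 and Mybl2 are lower in every Dp3Tyb heart than in wt_d.

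The MuvB core genes did not pass the main limma test in any comparison. Lin52 (chr12:84451508-84531533) averaged 132 ± 19.4 in Dp3Tyb against 142 ± 14.6 in wt_d, and 119 ± 6.40 in Ts1Rhr against 125 ± 16.7 in wt_t. Its difference on the mean of both strains was -0.09 ± 0.08 on the log2 scale (95% interval -0.26 to 0.08, adjusted p = 0.844). Thus a fall in this DYRK1A substrate's mRNA of more than 0.26 log2 units lay outside the interval, and the sign of the difference turned without the 7 hearts of high mitochondrial share (0.04 ± 0.09). Lin37 (chr7:30555441-30559721), a core subunit needed for repression, was likewise flat within its error, with 103 ± 16.2 against 105 ± 19.5 and 96.9 ± 4.50 against 99.8 ± 9.53 (difference -0.03 ± 0.09, adjusted p = 0.943).

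Lin9 (chr1:180641150-180690687), a scaffold subunit of the core, and Lin54 (chr5:100442033-100500639), its DNA-binding subunit, had the larger differences of the core, both toward lower values. Lin9 stood at 336, 346, 324, 349 and 487 normalised reads in wt_d against 336, 319, 302, 294 and 413 in Dp3Tyb, and at 434, 471, 354, 513 and 312 in wt_t against 402, 389, 302, 323 and 297 in Ts1Rhr. Lin54 stood at 567, 567, 499, 582 and 711 in wt_d against 486, 476, 546, 486 and 617 in Dp3Tyb, and at 654, 681, 587, 737 and 501 in wt_t against 606, 662, 521, 476 and 471 in Ts1Rhr. The groups overlapped for both genes in both strains, and within each group the high values belonged to hearts of high mitochondrial share. On the mean of both strains the log2 difference was -0.21 ± 0.10 for Lin9 (adjusted p = 0.629) and -0.18 ± 0.08 for Lin54 (adjusted p = 0.587). Without the 7 hearts it was -0.12 ± 0.05 for Lin9 (adjusted p = 0.442) and -0.15 ± 0.06 for Lin54 (adjusted p = 0.338). With the mitochondrial share as a term in the fit Lin9 passed (-0.16 ± 0.04, adjusted p = 0.0467, from 0.0453 to 0.816 over 10 alternatives, with 2.33% of all genes called) and Lin54 did not (-0.15 ± 0.04, adjusted p = 0.0611). Library weights called both genes, the only 1 of 10 alternatives that called Lin54 (adjusted p from 0.0227 to 0.785), and called 4.6% of all genes.

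Of the pocket protein genes, Rbl1 fell and Rbl2 did not pass the test. Rbl1 (chr2:157145893-157204534), which encodes p107, was 14.2% lower on the mean of both strains (log2 change -0.22 ± 0.04, 95% interval -0.31 to -0.13, adjusted p = 0.0287). It stood at 862, 891, 893, 908 and 1025 normalised reads in wt_d against 751, 819, 767, 764 and 776 in Dp3Tyb. All 5 Dp3Tyb hearts were below all 5 wt_d hearts, an order that 0.474% of genes showed in the lower direction. In the other strain it stood at 913, 963, 912, 833 and 843 in wt_t against 806, 833, 704, 809 and 722 in Ts1Rhr. The highest Ts1Rhr heart lay next to the lowest wt_t heart, and every Ts1Rhr heart was below the wt_t mean.

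Rbl1 was 1 of 10 genes called lower in both strains together (0.0652% of 15348 tested). Apart from Dyrk1a, which is in 3 copies in both strains, Rbl1 was the only gene of the complex called there, against 0.267% of all genes. The separate strains gave -0.24 ± 0.06 in Dp3Tyb (adjusted p = 0.991, exact permutation p = 0.00794) and -0.21 ± 0.07 in Ts1Rhr (adjusted p = 0.795, exact permutation p = 0.0159). The strain difference was -0.03 ± 0.09 (95% interval -0.22 to 0.15). Without the 7 hearts of high mitochondrial share the change on the mean of both was -0.22 ± 0.04 (adjusted p = 0.0492). The call is close to the threshold, since leaving out any of 11 of the 20 hearts ended it (adjusted p from 0.0261 to 0.0749 over the 20 omissions), while the change itself stayed between -0.235 and -0.201. These 11 were wt_d replicates 2, 3 and 4, Dp3Tyb replicates 1, 3 and 4, wt_t replicates 1, 2 and 3, and Ts1Rhr replicates 3 and 5.

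Rbl2 (chr8:91070057-91123844) encodes p130, the pocket protein of resting cells. It averaged 780 ± 77.2 in Dp3Tyb against 846 ± 124 in wt_d, and 807 ± 43.1 in Ts1Rhr against 838 ± 62.1 in wt_t. The difference on the mean of both strains was -0.08 ± 0.06 (95% interval -0.21 to 0.05, adjusted p = 0.816), or -0.07 ± 0.04 without the 7 hearts of high mitochondrial share (adjusted p = 0.586), and the groups overlapped in both strains. Exons of Rbl2 share 4194 bases with Aktip on the opposite strand in the current annotation, and whether reads were counted by strand is not given in the sources used here. Its values, like those of Lin37 (464 bases shared with Hspb6) and Lin52 (132 bases shared with Aldh6a1), may therefore include reads of these neighbours. The same holds for Rbl1, which shares 329 bases with Gm14277, and for Mybl2, which shares 188 bases with Gm75457.

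E2f4 and Tfdp1, whose products form the DNA-binding pair of the complex, did not pass the test in either strain or on the mean of both. E2f4 (chr8:105297663-105305370) averaged 551 ± 36.1 in Dp3Tyb against 551 ± 15.4 in wt_d, and 609 ± 60.9 in Ts1Rhr against 563 ± 62.9 in wt_t (mean difference 0.06 ± 0.06, adjusted p = 0.856). Tfdp1 (chr8:13338725-13378448) averaged 1381 ± 110 against 1357 ± 79.0, and 1402 ± 40.6 against 1421 ± 121 (mean difference 0.00 ± 0.05, 95% interval -0.09 to 0.10, adjusted p = 0.986). For both genes the WT and mutant values overlapped in each strain.

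Mybl2 (chr2:163054327-163084688) encodes B-MYB, which takes the place of the pocket protein on the MuvB core in dividing cells. It stood at 396, 447, 434, 440 and 452 normalised reads in wt_d against 348, 359, 364, 355 and 344 in Dp3Tyb. All Dp3Tyb hearts were below all wt_d hearts, and their spread was small (354 ± 7.92). As for Rbl1, 0.474% of all genes separated in that direction. In wt_t it stood at 388, 400, 391, 379 and 400, against 325, 389, 440, 338 and 365 in Ts1Rhr. Here the groups overlapped, with Ts1Rhr replicate 3 above every wt_t heart. Without that heart the log2 difference in Ts1Rhr was -0.15 and Mybl2 passed on the mean of both (-0.22, adjusted p = 0.0320), whereas without Ts1Rhr replicate 1 or 4 it was -0.04 or -0.05 in Ts1Rhr.

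The log2 difference of Mybl2 was -0.29 ± 0.06 in Dp3Tyb (adjusted p = 0.470, exact permutation p = 0.00794), -0.08 ± 0.09 in Ts1Rhr (adjusted p = 0.799, exact permutation p = 0.317) and -0.19 ± 0.05 on the mean of both (adjusted p = 0.167). DESeq2 called it in Dp3Tyb (adjusted p = 0.00713) and on the mean of both (adjusted p = 0.0465), where the alternatives ran from 0.00363 to 0.343 and 3 of 10 called it. The difference in Dp3Tyb minus that in Ts1Rhr was -0.21 ± 0.10 (95% interval -0.41 to -0.00, unadjusted p = 0.0496), which did not hold after adjustment over all genes (adjusted p = 0.9997). Between the WT groups wt_d averaged 434 ± 22.0 and wt_t 392 ± 9.05, and the mutant groups 354 ± 7.92 and 371 ± 45.8, levels that were not tested against each other. Without the 7 hearts of high mitochondrial share the Dp3Tyb difference was -0.27 ± 0.05 (adjusted p = 0.137).

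**Figure D2:**
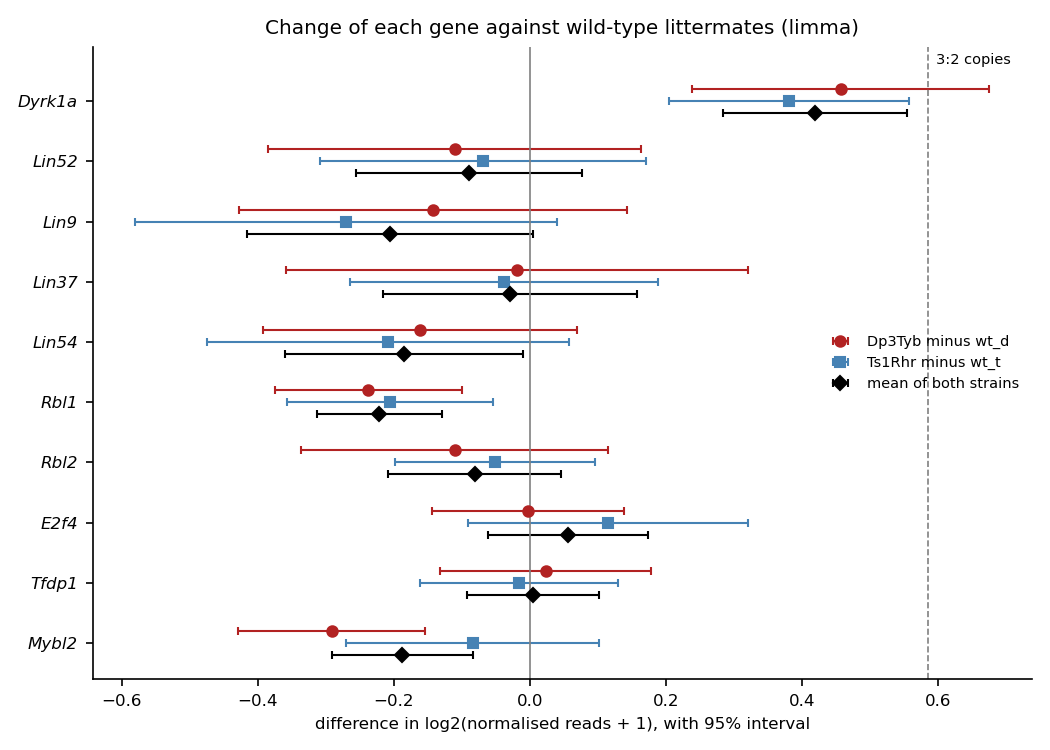
Difference in log2(normalised reads + 1) between mutant and WT hearts for the 10 genes, with 95% intervals, for Dp3Tyb (circles), Ts1Rhr (squares) and the mean of both strains (diamonds). The dashed line at 0.58 is the log2 ratio of 3 to 2 gene copies. Intervals of the mean of both strains exclude 0 for Dyrk1a on the right and for Rbl1, Mybl2 and, narrowly, Lin54 on the left.

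In all, 8 of the 10 genes had lower point values than WT in Dp3Tyb and 8 in Ts1Rhr, where 51.1% and 50.4% of all genes did. The main limma fit of each strain alone called none of them. At an unadjusted p under 0.05, Dyrk1a was higher and Rbl1 and Mybl2 lower in Dp3Tyb, where 1.59% and 1.21% of all genes were higher and lower. In Ts1Rhr Dyrk1a was higher and Rbl1 lower by that criterion, against 2.86% and 2.66%. DESeq2 called Dyrk1a, Mybl2 and Rbl1 in Dp3Tyb (0.23% of all genes called) and Dyrk1a in Ts1Rhr (0.168%), and edgeR called none in either strain (0.0677% and 0.0269%). With the mitochondrial share as a term, Dyrk1a, Mybl2 and Rbl1 passed in Dp3Tyb (0.366%) and Dyrk1a in Ts1Rhr (0.168%). With library weights, Dyrk1a and Mybl2 passed in Dp3Tyb (0.386%) and Dyrk1a in Ts1Rhr (0.108%).

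The hearts of a group also varied together. After the mean of each group was removed, Dyrk1a went with Lin9 (Pearson r = 0.91, permutation p = 1e-05, the smallest that 100000 resamples can give, adjusted over 9 relations 9e-05, Spearman rho = 0.92, permutation p = 1e-05). It also went with Lin54 (r = 0.83, permutation p = 9e-05, adjusted p = 0.000405, rho = 0.81, permutation p = 0.00021) and with Rbl2 (r = 0.84, permutation p = 0.00106, adjusted p = 0.00318, rho = 0.67, permutation p = 0.00344). The other 6 genes had r between -0.31 and 0.34, and none of these passed. Without wt_d replicate 5 and Dp3Tyb replicate 5, the hearts farthest from the median of Dyrk1a, r was 0.87 for Lin9, 0.76 for Lin54 and 0.63 for Rbl2, and the last no longer passed (adjusted p = 0.118). Within the Dp3Tyb cohort r was 0.96, 0.93 and 0.92, which passed by r (adjusted permutation p at most 0.0345) and not by Spearman's rho (at least 0.0563). Within the Ts1Rhr cohort r was 0.89, 0.77 and 0.70, where Lin9 passed by both measures, Lin54 by rho (0.82, adjusted permutation p = 0.0389) and not by r (0.072), and Rbl2 by neither (0.155 for r).

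Among the 13 hearts with at most 10% mitochondrial reads none of these relations passed after adjustment. There r was 0.41 for Lin9, 0.19 for Lin54 and 0.52 for Rbl2 (adjusted permutation p = 0.701 for each). Spearman's rho was 0.38 for Lin9 and 0.08 for Lin54, while for Rbl2 it was 0.73 (permutation p = 0.0312, adjusted p = 0.281), as large as over all 20 hearts. No correlation was computed within the 7 hearts of high share, of which wt_d and Dp3Tyb had 1 each, wt_t 3 and Ts1Rhr 2. All 7 were above their group mean for Dyrk1a, Lin9 and Lin54, 6 of 7 for Rbl1 and 5 of 7 for Rbl2, whereas 3 of 7 were for Mybl2.

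**Figure D3:**
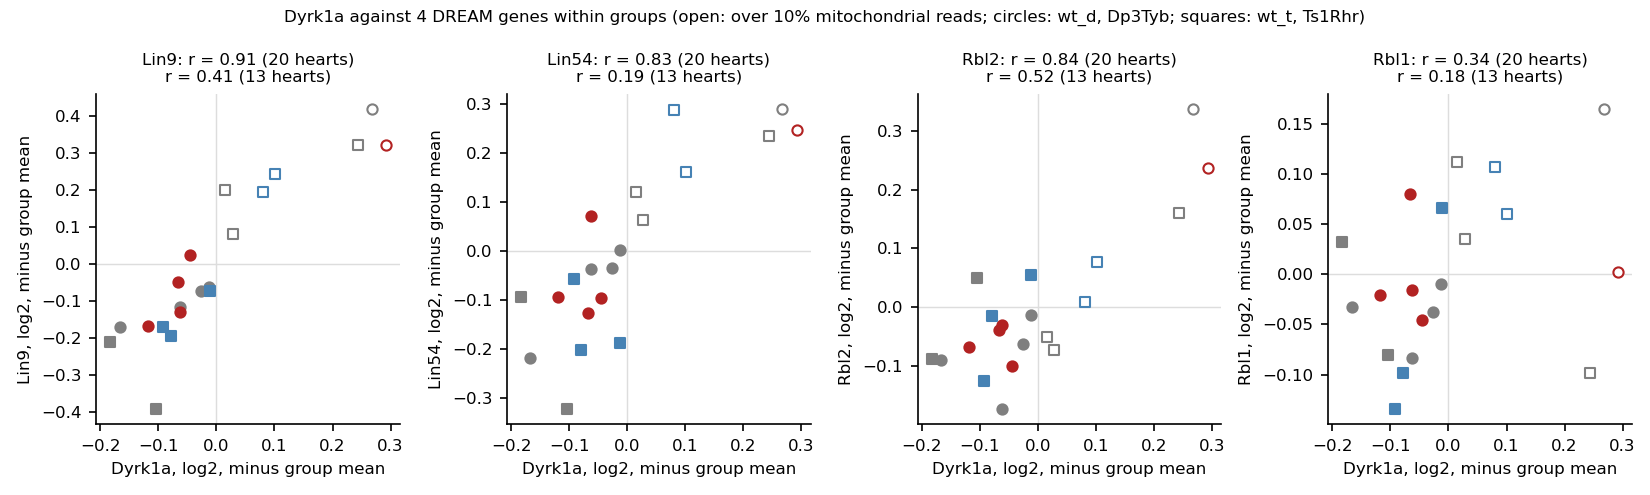
Level of Lin9, Lin54, Rbl2 and Rbl1 against that of Dyrk1a in 20 hearts, each as log2(normalised reads + 1) minus the mean of its group (circles are wt_d in grey and Dp3Tyb in red, squares are wt_t in grey and Ts1Rhr in blue). Open points, the 7 hearts with over 10% mitochondrial reads, lie on the upper right for Lin9 and Lin54, and r for the 13 filled points, centred again on their own group means, is printed above each panel.

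By the same measure, the 5 genes most like Dyrk1a within groups among 15347 others were Csf2ra (a cytokine receptor subunit), Dhdh (a dehydrogenase), Ube2l3 (a ubiquitin-conjugating enzyme), Tpp1 (a lysosomal peptidase) and Dnajc7 (a co-chaperone), with r from 0.959 to 0.963 over 20 hearts. In the 13 hearts of lower mitochondrial share their r was 0.418, 0.731, 0.494, 0.613 and 0.573. Lin9 ranked 491 in this order, Rbl2 1588 and Lin54 1724. With group differences kept in, the 5 most alike were Ttc3, Psmg1, Chaf1b, Morc3 and Sh3bgr, all on chromosome 16 like Dyrk1a, with r from 0.913 to 0.953. In that order Rbl1 ranked 15158 of 15347 (r = -0.59) and Mybl2 15270 (r = -0.66), near the end of lowest r. This order holds the differences between mutant and WT groups given above, so the ranks are no separate support for them. Within groups r was 0.34 for Rbl1 and -0.17 for Mybl2. These values are descriptions across 20 libraries of 1 series.

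Other regulators of the complex and of E2F activity were taken from a list of 20 genes, of which 19 were tested (Dyrk4 was too low, with group means of at most 1.46 normalised reads). None passed in any comparison of the main limma fit. On the mean of both strains 15 of 19 were lower than WT, where 49.2% of all genes were, with a median of -0.05 against 0.00 over all genes tested. In Dp3Tyb alone 14 of 19 were lower and in Ts1Rhr 11 of 19 (57.9%), where 51.1% and 50.4% of all genes were. The lowest included E2f8 and E2f7, atypical E2F repressors that are themselves E2F targets, and Dyrk1b, the closest relative of Dyrk1a. E2f7 averaged 475 ± 38.0 in Dp3Tyb against 546 ± 80.7 in wt_d and 494 ± 37.6 in Ts1Rhr against 594 ± 70.1 in wt_t (difference -0.23 ± 0.07, adjusted p = 0.255). E2f8 gave -0.26 ± 0.11 (adjusted p = 0.534). Dyrk1b averaged 231 ± 26.6 against 279 ± 41.5, and 243 ± 32.7 against 287 ± 27.1 (difference -0.25 ± 0.08, adjusted p = 0.299), opposite in sign to Dyrk1a.

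Foxm1, the activator that joins B-MYB on the MuvB core, averaged 1216 ± 31.4 in Dp3Tyb against 1334 ± 35.1 in wt_d without overlap (1 of 19 regulators, against 0.474% of all genes in that direction), and 1260 ± 81.8 in Ts1Rhr against 1370 ± 116 in wt_t with overlap (mean difference -0.13 ± 0.04, adjusted p = 0.305). Rbbp4, the histone-binding subunit of MuvB, differed by -0.01 ± 0.10, E2f5 by 0.02 ± 0.06, the retinoblastoma gene Rb1 by -0.09 ± 0.07 and Dcaf7, the adaptor that binds DYRK1A, by -0.00 ± 0.10. Dyrk2 and Dyrk3 differed by -0.09 ± 0.05 and 0.03 ± 0.18, and Lats2, a kinase upstream of DYRK1A, by 0.03 ± 0.04. With the mitochondrial share as a term, E2f7 (adjusted p = 0.00334), E2f8 (0.00206) and Dyrk1b (0.0255) passed, 3 of 19 where 2.33% of all genes did. With library weights the same 3 and Foxm1 (-0.17 ± 0.03, adjusted p = 0.00506) passed, 4 of 19 where 4.6% of all genes did.

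Genes that the complex is known to bind were mostly lower than WT in both strains by small amounts, and no target gene passed in the main limma fit. Of 45 G1/S targets, which copy DNA and supply its building blocks, 44 were lower in Dp3Tyb, 40 in Ts1Rhr and 42 on the mean of both, with median log2 differences of -0.14, -0.11 and -0.13. Of 46 G2/M targets, which run mitosis, 46, 38 and 43 were lower, with medians of -0.15, -0.14 and -0.14. The G2/M median was -0.097 in Dp3Tyb without wt_d replicate 5, and for Ts1Rhr the omission of its replicate 5 gave -0.085 and the fit with the mitochondrial share as a term -0.090. Library weights gave the lowest medians in Ts1Rhr, -0.20 for the G2/M and -0.18 for the G1/S list. Without the 2 hearts labelled with defects these medians were -0.18 and -0.14. Those 2 are also the only Ts1Rhr hearts of high mitochondrial share, while the 3 such wt_t hearts stayed in that fit. The lower quartile of all genes tested was -0.157 there, against -0.105 in the main fit of Ts1Rhr. Without all hearts of high share the Ts1Rhr medians were -0.11 for both lists. In the main fit the medians over all genes tested were -0.00, -0.00 and 0.00, with 51.1%, 50.4% and 49.2% of genes lower. At an unadjusted p under 0.05 in the lower direction there were 20 of 45 and 19 of 46 on the mean of both, against 3.97% of all genes. Genes of 1 heart are not independent replicates, and these counts are a description.

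**Figure D4:**
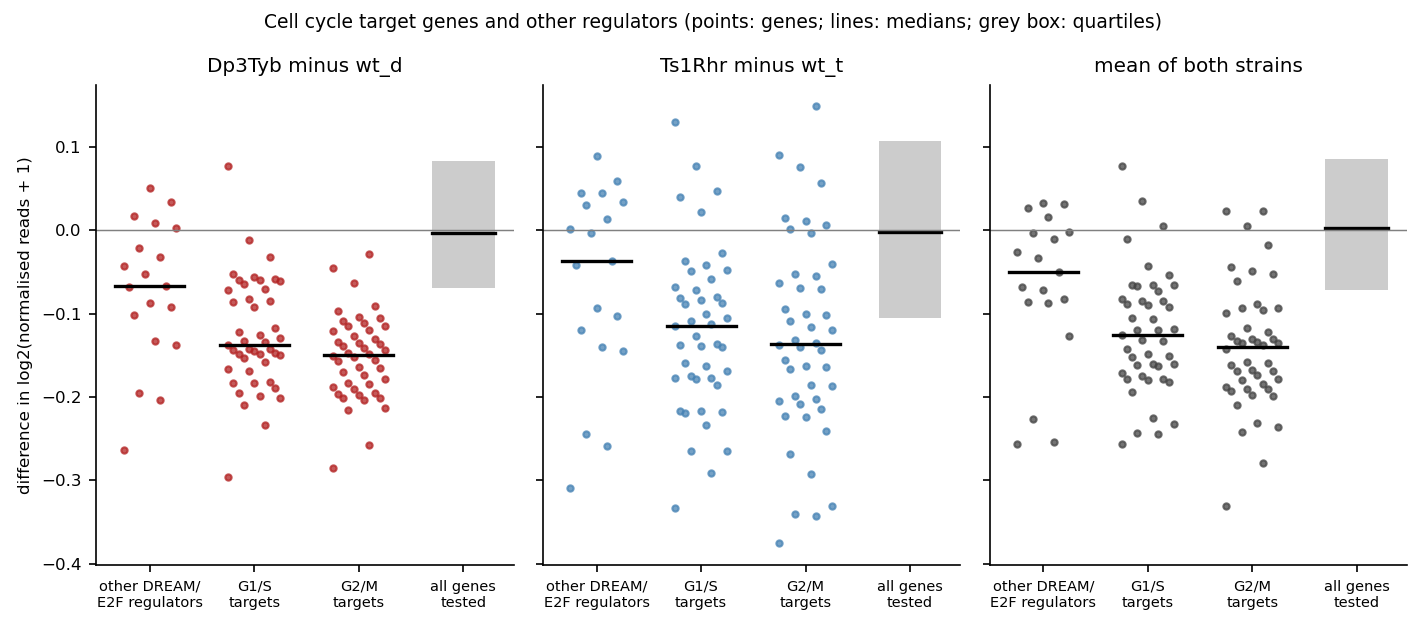
Difference in log2(normalised reads + 1) of each gene of the 3 lists in Dp3Tyb, in Ts1Rhr and on the mean of both strains, with the median of each list as a line. The grey box gives the quartiles of all genes tested. The medians of the G1/S and G2/M lists lie between -0.15 and -0.11 in all 3 panels, below the lower quartile of all genes tested.

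The most abundant G1/S genes were Rrm1 and Rrm2 (ribonucleotide reductase), Dnmt1 and Mcm6 (a subunit of the replicative helicase). On the mean of both strains Rrm2 differed by -0.19 ± 0.06 (adjusted p = 0.213), Rrm1 by -0.12 ± 0.05 (0.520), Dnmt1 by -0.11 ± 0.05 (0.653) and Mcm6 by -0.07 ± 0.05 (0.795). The most abundant G2/M genes were Mki67, Top2a (DNA topoisomerase), Ccna2 (cyclin A2) and Cenpf (a kinetochore protein). Top2a averaged 6597 ± 484 in Dp3Tyb against 7579 ± 893 in wt_d and 6800 ± 443 in Ts1Rhr against 7802 ± 521 in wt_t (difference -0.20 ± 0.05, adjusted p = 0.184). Ccna2 differed by -0.17 ± 0.05 (adjusted p = 0.288), Mki67 by -0.28 ± 0.16 (0.711) and Cenpf by -0.33 ± 0.16 (0.607). The hearts of a group were widely spread in the last pair, with Mki67 at 8384 ± 2998 in wt_d and 9933 ± 2294 in wt_t.

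Target genes whose groups did not overlap, named here after their values were seen, included Uhrf1, Brca1 and Tacc3 in Dp3Tyb and Mcm10 and Rfc4 in Ts1Rhr, all lower, where 0.474% and 0.498% of all genes did so. Without the 7 hearts of high mitochondrial share, 43 of 45 G1/S and 44 of 46 G2/M targets were lower on the mean of both strains, with medians of -0.11 and -0.11, and none passed. With the share as a term in the fit, 10 G1/S and 16 G2/M targets passed, all lower, where 2.33% of all genes passed. Weighting the libraries by their quality gave 23 and 22 (4.60% of all genes), and DESeq2 gave 4 and 4 (0.847%).

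A lower level of these transcripts in a whole heart cannot be told apart from fewer cells of the type that makes them. Cardiomyocyte markers had a median difference of -0.09 on the mean of both strains (7 of 10 lower), endothelial markers 0.09 (6 of 8 higher), epicardial markers 0.05 (5 of 6 higher), red cell markers 0.22 (8 of 8 higher) and macrophage markers 0.28 (8 of 8 higher, Lyz2 called). Without the 7 hearts of high mitochondrial share the red cell median turned to -0.03 on the mean of both (5 of 8 lower) and from 0.29 to -0.15 in Ts1Rhr (6 of 8 lower), and Lyz2 was no longer called, while the macrophage median was 0.23 with 8 of 8 higher. With the share as a term the cardiomyocyte median was -0.03 on the mean of both (9 of 10 lower) and 0.01 in Ts1Rhr (6 of 10 higher), and Csf1r, Lyz2 and Mrc1 were called higher. Other fits moved the Ts1Rhr cardiomyocyte median the other way from its main value of -0.09. It was -0.16 with library weights and -0.22 without the 2 hearts labelled with defects (8 of 10 lower in each). The latter fit kept the 3 wt_t hearts of high mitochondrial share and no such Ts1Rhr heart. Without all hearts of high share the Ts1Rhr cardiomyocyte median was -0.11 (7 of 10 lower). With library weights Ryr2 and Ttn were called lower and Lyz2, Mrc1 and Tcf21 higher. The summed level of the 8 macrophage markers was 1940 to 2312 normalised reads in Dp3Tyb against 1383 to 2052 in wt_d, and 1677 to 2355 in Ts1Rhr against 1550 to 1837 in wt_t. Summed red cell markers ranged from 109868 to 177166 in Ts1Rhr and from 59710 to 238861 in wt_t, and from 42653 to 77094 in Dp3Tyb and 32604 to 68274 in wt_d. Of 7 markers of lung and foregut tested, 7 were higher in Dp3Tyb and 7 lower in Ts1Rhr, none called. Their medians depended on the fit, at 1.86 with limma and 0.54 with edgeR in Dp3Tyb and at -1.63 and -0.76 in Ts1Rhr, with summed levels of at most 909, with Nkx2-1 at 0 in 4 libraries and Sftpc at 0 in 15. Of 6 liver markers, 1 was high enough to test in each strain, and its sign in Ts1Rhr differed between limma (-0.16) and DESeq2 (0.63). The part of these cell types in the results on the complex was not tested.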

How the data were processed

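Whole hearts were extracted and poly(A) libraries sequenced by the authors, who deposited 1 table of 48795 genes by 20 libraries. The deposited values are a signal, reads divided by a library size factor; per the submitters' processing notes, which give no order or role, the tools were Trimmomatic 0.36, STAR 2.5.2a, RSEM 1.2.31 and DESeq2 on GRCm38. The annotation release and the use of strand are not given in the sources used here. All values were whole multiples of 1 step per library (100% within 0.001 reads), so reads were recovered (6.60 to 19.6 M per library).

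Symbols and transcript lengths came from GENCODE vM39 by gene identifier (44565 of 48795, 91.3%). The Lin54 identifier of the table is absent from it and was paired with its name through the study's gene tables, with the lengths of the current Lin54 entry. Gene coordinates and promoters came from RefSeq GRCm38.p6.

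Genes that reached a value of 10 in 5 or more of the libraries fitted were tested with limma 3.58.1 (R 4.3.3; trended, robust) on log2(value + 1), 2-sided, with Benjamini-Hochberg adjustment over all genes tested and a threshold of 0.05. Fold changes are on that scale, which understates those of low genes. Each strain was fitted with its own 10 libraries, and the mean of both strain changes and their difference on all 20. The study used DESeq2, run here (1.42.0) with edgeR (4.0.16) as an alternative on recovered reads. Exact permutation tests were run over samples and within-group permutations (100000) for relations. Groups came from the genotype labels. The label of each control group carries only an initial of its strain and was read as the littermates in the series description. Replicate numbers follow listing order and pair nothing, and nothing states that embryos of a group came from separate litters, so p-values measure the spread between these hearts. Within groups, 40 library pairs differed by 4.11 to 151 times sampling noise (mean chi-square), so none was a repeat reading of the same library. This cannot exclude 2 libraries made from 1 heart, and pairs across groups were not compared. Scripts were tested on simulated data.

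The 10 genes, the lists of regulators, targets and markers, and the tests were chosen with earlier results of these data known. All 10 genes are named. Any listed regulator could be named, and of each target list the 4 most abundant genes and any that passed in the main limma fit were to be. The 5 genes most like Dyrk1a were chosen by Pearson r of group-centred values. Not every gene of the target lists is reported here by name.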

Additional observations from a re-analysis of the deposited data

Results flagged for a closer look

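In each group of 5 hearts and for each of the 10 genes, the heart farthest from the others was set against Dixon's critical value for 5 samples (0.71), which chance passes in about 1 in 20 groups. It was passed in 5 of 40 sets, always by the highest heart. Dyrk1a was 3196 normalised reads in Dp3Tyb replicate 5, with the other 4 hearts between 2403 and 2529. In wt_d replicate 5, Lin9 was 487 (others 324 to 349), Rbl1 was 1025 (others 862 to 908) and Rbl2 was 1060 (others 744 to 831). Rbl2 was also high in Dp3Tyb replicate 5, at 916 against 726 to 761. These hearts held 19.5% (wt_d replicate 5) and 15.5% (Dp3Tyb replicate 5) mitochondrial reads, the highest share of their groups. They were also the smallest libraries of their groups, at 6.60 and 12.5 M reads. Share and depth cannot be told apart here, and the part of either in the values was not tested.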

How the results depend on the processing

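Over the alternatives tried on each strain, the DREAM genes and their target lists kept their direction except where a value is given below; the causes of these changes were not tested. No paired analysis was run, because replicate numbers only follow listing order and nothing ties them to litters. In Dp3Tyb, the number of the 10 genes called went from 0 to 3 with DESeq2, 2 with library weights, 3 with the mitochondrial share as a term and 1 without the 7 hearts of over 10%. In Ts1Rhr it went from 0 to 1 with DESeq2, with weights and with the term. On the mean of both strains it went from 2 to 1 with no filter on low genes (Rbl1 lost, adjusted p = 0.0861), 5 with weights and 4 with the term, where the share of all genes called rose from 0.267% to 4.6% and 2.33%. Dyrk1a passed in Dp3Tyb at 0.461 (log2) with DESeq2, 0.454 with weights, 0.448 with the term and 0.451 without the 7 hearts, and in Ts1Rhr at 0.378, 0.399 and 0.442 for the first 3 of these. G1/S and G2/M targets called on the mean of both went from 0 and 0 to 4 and 4 with DESeq2, 23 and 22 with weights and 10 and 16 with the term. Without the 2 Ts1Rhr hearts labelled with defects there was 1 G1/S target, and in Dp3Tyb the term gave 2 G2/M targets. Regulators called went from 0 to 4 with weights and 3 with the term.

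Counts of all genes called in Dp3Tyb, Ts1Rhr and the mean of both were 8, 4 and 41, and became 34, 25 and 130 with DESeq2, 57, 16 and 706 with weights, 54, 25 and 357 with the term, 30, 0 and 50 without the 7 hearts, and 17 and 11 in a single fit of all 20 libraries. With no filter Dp3Tyb had 4. Without the 2 Ts1Rhr hearts labelled with defects Ts1Rhr had 0. Leaving out 1 heart at a time gave 2 to 13 in Dp3Tyb (13 without wt_d replicate 5), 1 to 6 in Ts1Rhr (6 without wt_t replicate 5) and 31 to 49 on the mean of both.

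Signs turned for genes near 0. In Dp3Tyb, Lin37 was 0.0230 with weights, and E2f4 was 0.00748 with DESeq2, 0.00327 with edgeR, 0.0525 with weights and 0.0351 without the 7 hearts. In Ts1Rhr, Lin52 was 0.0892 and Tfdp1 0.109 without the 7 hearts, Rbl2 was 0.0157 with weights, and Tfdp1 was 0.00943 without the hearts labelled with defects. On the mean of both, Lin52 was 0.0358 without the 7 hearts. The strain difference was -0.0128 for Dyrk1a without the 7 hearts, and for Rbl1 it was 0.0415 with weights, 0.0404 without the 7 hearts and 0.0236 without the hearts labelled with defects. The correlation of Dyrk1a with E2f4 was -0.469 in the Dp3Tyb cohort and -0.273 without the 7 hearts, with Mybl2 0.103 in the Dp3Tyb cohort, with Tfdp1 0.125 in the Ts1Rhr cohort and 0.146 without the 2 farthest hearts, and with Lin37 0.0251 without those 2 and 0.322 without the 7.

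Leaving out 1 heart at a time, in Dp3Tyb Lin37 ran from -0.102 to 0.0551, E2f4 from -0.0269 to 0.0346 and Tfdp1 from -0.0116 to 0.0564. In Ts1Rhr Lin37 ran from -0.0933 to 0.00316 and Tfdp1 from -0.0656 to 0.0194. On the mean of both, Lin37 ran from -0.0701 to 0.00829, Tfdp1 from -0.0211 to 0.0214 and the number of the 10 genes called from 1 to 2, with 0 to 1 for G1/S and 0 to 1 for G2/M targets. The strain difference of Rbl1 ran from -0.0656 to 0.00909. Dyrk1a kept its call on the mean of both in all 20 omissions (0.383 to 0.452).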
